A study of Homo sapiens with 12 samples.

Results

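The glycolysis and hypoxia response genes described here are 40 genes that encode glycolytic enzymes, glucose and lactate transporters, regulators of glycolytic flux, oxygen sensors and targets of the hypoxia-inducible factors (HIF). They were listed by symbol for their known roles, with earlier results of these data in view, and all 40 were found among the 18950 genes of the deposited table. Total RNA was sequenced from DU145 and PC3, cell lines long established from human prostate tumours, which had been kept in DMEM with 10% fetal bovine serum. Both were sorted on the brightness of GFP, a green fluorescent protein that the labels tie to Wnt/β-catenin signaling. The 4 groups, of 3 libraries each, were DU145 GFP+ (the brightest 10% of cells, labelled as active in the pathway), DU145 GFP- (the dimmest 10%, labelled as inactive), PC3 GFP+ and PC3 GFP-. All groups carried GFP and shared the same medium, no group was given a drug or a low-oxygen period according to the labels, and the construct that drives GFP is not named in them. Each group is a sort of a single line, so a difference between DU145 and PC3 compares these cultures and no wider class of tumour.

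Glycolysis splits glucose into pyruvate in a fixed chain of enzymes, and lactate dehydrogenase and a lactate exporter carry the carbon out of cells that do not oxidise it. When oxygen is short, prolyl hydroxylases of the EGLN family stop marking HIF-α proteins for destruction, and HIF binds the core letters ACGTG or GCGTG near genes of glycolysis, of blood vessel growth and of mitochondrial turnover. Because HIF1A is controlled mainly at the protein level, its transcript does not report HIF activity. Prostate cancer lines are known to run glycolysis in the presence of oxygen as well, and β-catenin signaling has been linked to glycolytic genes in other tumours.

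Levels are in CPM, counts per 1000000 of a scaled library total, taken out of the deposited log2 scale. Fold changes are on that log2 scale, whose offset of 0.5 counts understates the changes of low genes. Estimated total counts ran from 13453614 to 21528810 per library, so that a count of 0 allowed up to 0.130 to 0.233 CPM, a limit that covers counting error only. Between libraries of a group the variance was 5.42 to 35.6 times that of counting error, so none was a copy of another. DU145 GFP+ replicate 3 stood apart from replicates 1 and 2 of its group, by 21.5 and 17.8 times that variance, and PC3 GFP- replicate 2 stood apart from replicate 3 by 35.6 times. The labels do not say whether libraries came from separate cultures, so p-values measure the spread between these libraries, which may be technical. Counting by strand is not stated, and exons of PFKM, TPI1, PGK1, ENO1, PGM1, SLC2A1, SLC16A3, PFKFB4, BNIP3L, CA9 and ANKRD37 overlap those of another gene of the table, so some of their reads may be that gene's. In bulk RNA, fewer cells with a transcript and less transcript per cell cannot be told apart.

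Marker genes gave a mixed picture of the labelled lines. KRT18, a keratin of simple epithelia, had 338 to 2023 CPM over all libraries, and PTPRC, PECAM1 and KLK3 (blood cell, endothelial and prostate luminal markers) were at 0 or near it. EPCAM (0.0217 to 0.248 CPM) and CDH1 (0.0217 to 0.693 CPM), adhesion genes that DU145 is known to express, were also near 0 in both lines. The line names used here are those of the labels. The keratin KRT8 also differed between the sorts, with 1642, 1641 and 1976 CPM in GFP+ libraries, against 2896, 2568 and 2801 CPM in GFP- libraries in DU145 (log2 change -0.66 ± 0.10 SE, limma adjusted p = 0.00152). In PC3 it had 16.2, 20.4 and 17.8 CPM in GFP+ libraries, against 26.5, 28.3 and 23.5 CPM in GFP- libraries (log2 change -0.53 ± 0.10 SE, limma adjusted p = 0.0055), and KRT18 was lower in DU145 GFP+ cells as well (log2 change -0.52 ± 0.12 SE, limma adjusted p = 0.0121). The part of the keratins in the changes of the members was not tested.

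The start regions of AK4, DDIT4, PFKL, BNIP3 and PGM1 are shown because these members fell in PC3 GFP+ cells in all 12 fits that left out a single library (as did NDRG1, not shown), and LDHA, a classical HIF target that passed the test in neither line, stands beside them. Each sequence is the 250 bases before the most upstream start in RefSeq, on the gene's strand and on GRCh38.p14. ACGTG and GCGTG, on either strand, are in capitals. The gene positions given below are from GENCODE, which starts PGM1 and BNIP3 further upstream, so their windows lie partly inside those positions. AK4 lies at chr1:65147302-65147551 (plus strand), DDIT4 at chr10:72273674-72273923 (plus strand), PFKL at chr21:44299803-44300052 (plus strand), BNIP3 at chr10:131981924-131982173 (minus strand), PGM1 at chr1:63593161-63593410 (plus strand) and LDHA at chr11:18394313-18394562 (plus strand).
AK4: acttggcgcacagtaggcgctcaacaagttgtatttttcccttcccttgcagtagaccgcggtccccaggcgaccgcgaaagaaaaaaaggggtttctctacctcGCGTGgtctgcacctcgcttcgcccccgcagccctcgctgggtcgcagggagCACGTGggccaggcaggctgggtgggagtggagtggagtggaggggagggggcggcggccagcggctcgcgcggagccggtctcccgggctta
DDIT4: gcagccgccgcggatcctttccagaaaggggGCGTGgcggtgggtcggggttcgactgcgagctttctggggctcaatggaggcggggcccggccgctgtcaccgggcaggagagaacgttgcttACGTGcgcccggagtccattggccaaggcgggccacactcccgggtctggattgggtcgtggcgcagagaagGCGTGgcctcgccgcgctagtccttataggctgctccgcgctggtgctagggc
PFKL: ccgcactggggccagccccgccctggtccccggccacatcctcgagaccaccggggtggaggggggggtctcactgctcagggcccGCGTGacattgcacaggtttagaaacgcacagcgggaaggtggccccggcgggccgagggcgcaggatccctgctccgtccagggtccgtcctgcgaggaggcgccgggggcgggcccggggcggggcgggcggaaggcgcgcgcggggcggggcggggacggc
BNIP3: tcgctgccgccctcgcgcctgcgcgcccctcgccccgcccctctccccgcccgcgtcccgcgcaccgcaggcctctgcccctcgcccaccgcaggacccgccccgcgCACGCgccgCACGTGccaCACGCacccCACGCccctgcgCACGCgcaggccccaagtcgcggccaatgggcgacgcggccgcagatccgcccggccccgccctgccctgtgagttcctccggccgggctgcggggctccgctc
PGM1: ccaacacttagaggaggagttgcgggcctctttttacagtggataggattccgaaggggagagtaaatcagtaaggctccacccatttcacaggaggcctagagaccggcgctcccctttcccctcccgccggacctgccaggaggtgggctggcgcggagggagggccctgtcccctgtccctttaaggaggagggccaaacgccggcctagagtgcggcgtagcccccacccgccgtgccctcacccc
LDHA: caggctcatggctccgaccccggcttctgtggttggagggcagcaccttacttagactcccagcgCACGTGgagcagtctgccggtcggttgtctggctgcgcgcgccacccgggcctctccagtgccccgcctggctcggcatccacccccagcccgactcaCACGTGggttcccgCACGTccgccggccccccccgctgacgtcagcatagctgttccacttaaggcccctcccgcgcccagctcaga
The window of PGM1 holds neither core, that of PFKL holds GCGTG alone, and LDHA, AK4 and BNIP3 each hold CACGTG, a palindrome that contains ACGTG on both strands. Such a match is a description of the letters and does not show a binding site.

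RefSeq windows of this kind were found for 36 of the 40 members. ACGTG, read on both strands, was in 15 of the 36 windows (41.7%), against 18.6% of the 27305 windows of all genes and 23.7% of the 9659 windows of genes past the expression minimum used below. GCGTG was in 13 of the 36 (36.1%), against 31.9% and 46.7% of those windows. CTTTGAT, a core that TCF and LEF factors are known to bind, was in 0 of the 36, against 2.30% and 1.23%. The windows with ACGTG were those of AK4, ALDOA, ALDOC, ANKRD37, BNIP3, CA9, DDIT4, EGLN1, ENO2, GAPDH, GPI, HK2, LDHA, P4HA1 and PGK1, a mix of genes that fell, genes that did not pass the test and genes near the detection limit.

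Changes were tested with limma over all 12527 genes with at least 1 CPM in at least 3 libraries, with Benjamini-Hochberg adjustment over all of them and a threshold of 0.05, and 38 of the 40 members were among those genes. In DU145 GFP+ cells 15 members fell and 4 rose, where 13.9% of all genes fell, 13.1% rose and 27.1% were called in all. Those that fell included 9 of the 18 enzymes, among them the hexokinases HK1 and HK2 and the pyruvate kinase PKM, and the lactate exporter SLC16A3, while HIF1A, LDHB, BNIP3L and KDM3A rose. After quantile normalization 9 members fell and 5 rose in DU145, beside 1098 of all genes that fell and 1154 that rose. With equal library medians 17 fell and 3 rose, beside 2305 of all genes that fell and 1313 that rose (1742 and 1647 in the fit reported here). In PC3 GFP+ cells 6 members fell (PFKL, PGM1, BNIP3, DDIT4, NDRG1 and AK4) and 0 rose, where 5.27% of all genes fell, 4.17% rose and 9.44% were called in all. Equal medians left those 6 calls, with 412 of all genes lower and 509 higher in PC3 (660 and 522 in the fit reported here). Among the PC3 rises, 1 member had an unadjusted p under 0.05, and limma with voom weights also called 0. The median log2 change of the 38 members was -0.24 in DU145 and -0.14 in PC3, beside -0.01 and -0.02 over all genes tested.

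**Figure D1:**
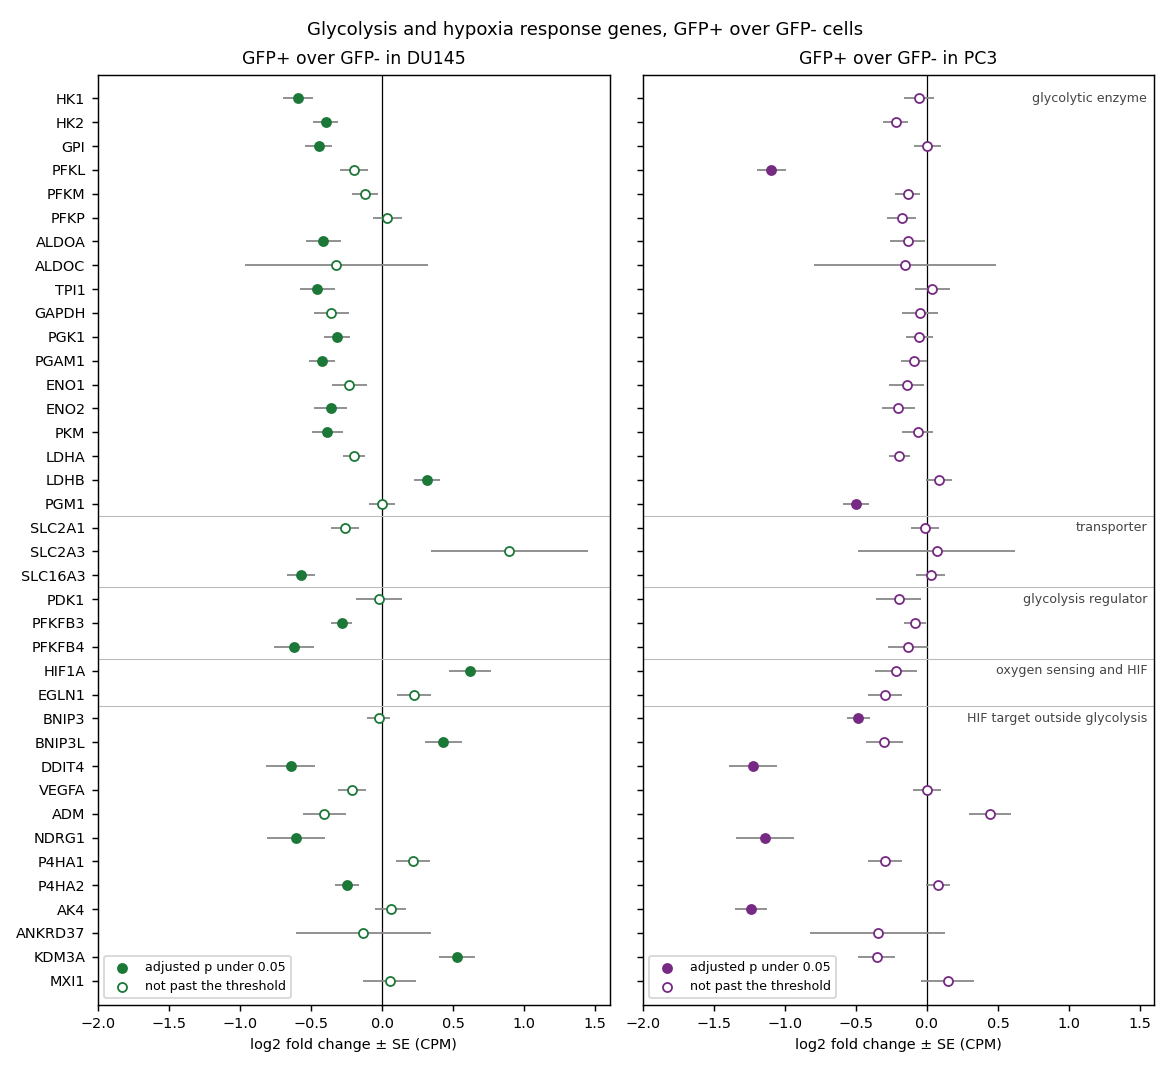
Log2 fold change, GFP+ over GFP-, of the 38 members past the expression minimum in DU145 (left) and PC3 (right), on the log2 CPM scale with standard errors from limma, grouped by role. Filled points have an adjusted p under 0.05: 15 lie below 0 and 4 above in DU145, and 6 lie below 0 in PC3.

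The composition of the transcripts moved with the DU145 values. In DU145 the change of a gene went with the GC content of its transcript, with a Spearman correlation of -0.64 across the 12510 genes with an annotated transcript and -0.67 across the 38 members, a description over genes that share libraries. The members that rose had a GC content of 36.4% to 46.5%, those that fell 43.3% to 62.7%, and the median member stood at 52.9%, beside 48.9% over all genes tested. In PC3 the correlation was -0.10 across all genes and 0.13 across the members. When each library's dependence on GC content and length (the GC and length trend) was taken out, 14 members were lower and 3 higher in DU145 (12.7% and 7.73% of all genes), and of the 19 original calls 13 were shared. ENO2, PFKFB3, HIF1A, BNIP3L, NDRG1 and P4HA2 lost theirs. Of the calls that held, the DU145 log2 change was then smaller by over 1.5 times for ALDOA (-0.13), PKM (-0.13), TPI1 (-0.20), PGAM1 (-0.24), SLC16A3 (-0.35), PFKFB4 (-0.40), DDIT4 (-0.38) and KDM3A (0.34), and larger for PGK1 (-0.59). Newly called in DU145 were PFKP (higher), LDHA, PDK1 (-0.62) and AK4 (-0.30). With it taken out in PC3, 11 were lower and 1 higher (9.95% and 9.15% of all genes), with all 6 original calls among them. Newly called in PC3 were HK2 (-0.27), PFKP (-0.14), EGLN1 (-0.36), BNIP3L (-0.32) and KDM3A (-0.41), all lower, and ADM (0.52), higher. The median log2 change of the 38 members was then -0.13 in DU145 and -0.12 in PC3, against -0.24 and -0.14 before. Over all genes the medians with the trend removed were -0.02 in DU145 and -0.01 in PC3.

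**Figure D2:**
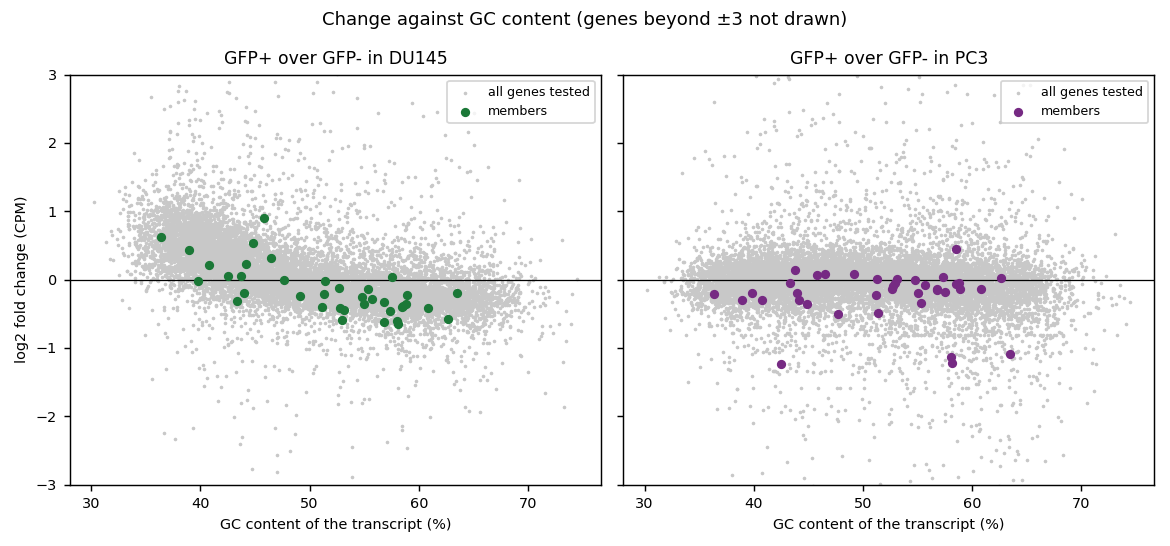
Log2 fold change, GFP+ over GFP-, against the GC content (%) of the longest annotated transcript in DU145 (left) and PC3 (right), for all genes tested (grey) and the 38 members (coloured). In DU145 the cloud slopes down from low to high GC content, with PGK1 and LDHA among the members of low GC content that lie below 0, and in PC3 the cloud is flat and the 4 lowest members lie more than 1 log2 unit below 0.

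The number of DU145 calls, of members as of all genes, depended on single libraries. Without DU145 GFP+ replicate 3, the library that stood apart, 26 members were called (5597 of all 12527 genes), and without DU145 GFP+ replicate 1, 5 were (896 of all genes). The corresponding counts of members were 7 without DU145 GFP+ replicate 2 (1066 of all genes) and 9 without GFP- replicate 1 (1323 of all genes). They were 6 without GFP- replicate 3 (966 of all genes) and 19 without GFP- replicate 2 (3439 of all genes). With DU145 GFP+ replicates 1 and 2 both left out, limma called 0 members and 170 of all genes, although 5 members had an unadjusted p under 0.05, all of them lower. HK1, HK2, GPI, PGAM1 and SLC16A3 were called in all 12 fits that left out a single library. In PC3 all 6 falls were called in all 12 such fits, and without PC3 GFP- replicate 2, the library that stood apart there, the same 6 were called.

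The hexokinases, which phosphorylate glucose on entry, fell in DU145 GFP+ cells. HK1 (ENSG00000156515, chromosome 10, 69269984 to 69401884 on GRCh38) had 213, 231 and 253 CPM in GFP+ libraries, against 354, 327 and 367 CPM in GFP- libraries. HK2 (ENSG00000159399, chromosome 2, 74833981 to 74893359 on GRCh38), the isozyme known to respond to HIF, had 42.8, 44.6 and 38.8 CPM in GFP+ libraries, against 61.1, 54.0 and 51.5 CPM in GFP- libraries. The 3 GFP+ libraries lay below the 3 GFP- libraries for both genes. HK1 fell 1.51-fold (log2 change -0.59 ± 0.10 SE, limma adjusted p = 0.00326), and HK2 fell 1.32-fold (log2 change -0.40 ± 0.09 SE, limma adjusted p = 0.00815). In PC3, HK1 had 229.8, 227 and 219 CPM in GFP+ libraries, against 239, 274 and 196 CPM in GFP- libraries, with overlapping groups (log2 change -0.06 ± 0.10 SE, limma adjusted p = 0.82). HK2 in PC3 had 67.6, 66.9 and 62.9 CPM in GFP+ libraries, against 74.4, 78.7 and 77.0 CPM in GFP- libraries. The PC3 groups of HK2 did not overlap, but the difference did not pass the test (log2 change -0.22 ± 0.09 SE, limma adjusted p = 0.135), and it passed with the GC and length trend removed (limma adjusted p = 0.0132 there and 0.0104 to 0.642 over 27 alternatives). Per kilobase of transcript, HK1 made up 88.8% ± 1.4 of the HK1 and HK2 level in DU145 GFP+ and 90.1% ± 1.0 in DU145 GFP- (SD, n = 3 each), so the fall of both left their ratio within the spread between libraries.

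GPI, which turns glucose 6-phosphate into fructose 6-phosphate, also fell in DU145. GPI (ENSG00000105220, chromosome 19, 34359480 to 34402413 on GRCh38) had 550.1, 581 and 653 CPM in GFP+ libraries, against 818, 754 and 858 CPM in GFP- libraries, without overlap. It fell 1.36-fold (log2 change -0.45 ± 0.09 SE, limma adjusted p = 0.00773). In PC3 the groups overlapped, with 421, 437 and 424 CPM in GFP+ libraries, against 417, 492 and 379 CPM in GFP- libraries (log2 change 0.00 ± 0.09 SE, limma adjusted p = 0.995).

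Phosphofructokinase commits sugar to glycolysis, and of its genes the liver-type PFKL fell in PC3 while the others did not pass the test. PFKL (ENSG00000141959, chromosome 21, 44300051 to 44327376 on GRCh38) had 130.4, 129 and 122 CPM in GFP+ libraries, against 262, 312 and 243 CPM in GFP- libraries in PC3. No overlap was seen between the groups. It fell 2.14-fold (log2 change -1.10 ± 0.10 SE, limma adjusted p = 1.5e-05), with a log2 change of -1.17 to -0.99 over the alternatives. In DU145, PFKL had 207, 229 and 256 CPM in GFP+ libraries, against 262, 247 and 285 CPM in GFP- libraries, where the groups overlapped (log2 change -0.20 ± 0.10 SE, limma adjusted p = 0.14). The muscle-type PFKM had 63.3, 66.4 and 60.0 CPM in GFP+ libraries, against 71.8, 73.4 and 63.3 CPM in GFP- libraries in PC3 (log2 change -0.13 ± 0.09 SE, limma adjusted p = 0.414). The platelet-type PFKP had 475, 463 and 418 CPM in GFP+ libraries, against 506, 560.2 and 471 CPM in GFP- libraries in PC3 (log2 change -0.18 ± 0.10 SE, limma adjusted p = 0.329). Neither passed the test in PC3, where the sorts overlapped for both, and PFKP was called lower there with the GC and length trend removed (log2 change -0.14, limma adjusted p = 0.0463 there and 0.03 to 0.702 over 27 alternatives). As a share of the summed level per kilobase of the 3 isozymes, PFKL stood at 19.3% ± 0.4 in PC3 GFP+ and 31.1% ± 1.0 in PC3 GFP-, and PFKP at 72.1% ± 0.6 in PC3 GFP+ and 61.7% ± 0.7 in PC3 GFP- (SD, n = 3 each). In DU145, PFKM had 65.8, 75.7 and 74.5 CPM in GFP+ libraries, against 83.6, 73.1 and 78.3 CPM in GFP- libraries (log2 change -0.12 ± 0.09 SE, limma adjusted p = 0.306). PFKP had 289.7, 288 and 356 CPM in GFP+ libraries, against 312, 271 and 326 CPM in GFP- libraries in DU145 (log2 change 0.04 ± 0.10 SE, limma adjusted p = 0.811). Both DU145 comparisons overlapped, and PFKP was called higher with the GC and length trend removed, at a log2 change of 0.28 (limma adjusted p = 0.000973 there and 0.000752 to 0.885 over 27 alternatives).

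Of the aldolases, which split the 6-carbon sugar, ALDOA carried nearly all of the level. ALDOA had 1599, 1649 and 2059 CPM in GFP+ libraries, against 2333, 2168 and 2541 CPM in GFP- libraries in DU145, without overlap, and fell 1.33-fold (log2 change -0.41 ± 0.12 SE, limma adjusted p = 0.0288). In PC3 it had 2426, 2391 and 2319 CPM in GFP+ libraries, against 2528, 3154 and 2238 CPM in GFP- libraries, with overlap (log2 change -0.14 ± 0.12 SE, limma adjusted p = 0.585). ALDOC, the brain isozyme, was near the detection limit, with 2, 3 and 8 estimated counts in DU145 GFP+, 11, 2 and 6 in DU145 GFP-, 27, 25 and 10 in PC3 GFP+ and 15, 18 and 19 in PC3 GFP-, and its groups overlapped in both lines.

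TPI1, which interconverts the triose phosphates, had 921, 961 and 1192 CPM in GFP+ libraries, against 1456, 1299 and 1446 CPM in GFP- libraries in DU145. The groups did not overlap, and TPI1 fell 1.37-fold (log2 change -0.46 ± 0.12 SE, limma adjusted p = 0.0197). In PC3 TPI1 had 1247, 1337 and 1199 CPM in GFP+ libraries, against 1201, 1482 and 1039 CPM in GFP- libraries, with overlap (log2 change 0.04 ± 0.12 SE, limma adjusted p = 0.905). GAPDH, which reduces NAD+ in the next step, was the most abundant member per kilobase. It had 6390.1, 6215 and 7703 CPM in GFP+ libraries, against 8951, 7901 and 9097 CPM in GFP- libraries in DU145. These groups did not overlap either, but GAPDH missed the threshold (log2 change -0.36 ± 0.13 SE, limma adjusted p = 0.0511). In PC3 GAPDH ranged from 7104 to 7591 CPM in GFP+ libraries and from 6491 to 9113 CPM in GFP- libraries (log2 change -0.05 ± 0.13 SE, limma adjusted p = 0.882).

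PGK1 and PGAM1 carry out the steps after GAPDH, and both fell in DU145. PGK1, which yields ATP, had 600.2, 693 and 733 CPM in GFP+ libraries, against 874, 789.9 and 857 CPM in GFP- libraries. It fell 1.25-fold (log2 change -0.32 ± 0.09 SE, limma adjusted p = 0.0268). PGAM1 (ENSG00000171314, chromosome 10, 97426160 to 97433441 on GRCh38), a mutase, had 691, 746 and 849 CPM in GFP+ libraries, against 1036, 978 and 1039 CPM in GFP- libraries. It fell 1.34-fold (log2 change -0.42 ± 0.09 SE, limma adjusted p = 0.00867), and neither gene's groups overlapped. In PC3 both overlapped, PGK1 with 543, 600.1 and 525 CPM in GFP+ libraries, against 579.6, 636 and 519.7 CPM in GFP- libraries (log2 change -0.05 ± 0.09 SE, limma adjusted p = 0.807). PGAM1 in PC3 had 686, 736 and 678 CPM in GFP+ libraries, against 763, 822 and 660.4 CPM in GFP- libraries (log2 change -0.09 ± 0.09 SE, limma adjusted p = 0.629). PGAM1 has fractional estimated counts in all 12 libraries, and its level is uncertain where copies share reads.

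Of the enolases, ENO1 supplied 99.4% to 99.5% of the level per kilobase in the group means. ENO1 had 4758, 4839 and 5854 CPM in GFP+ libraries, against 6211, 5600.3 and 6285 CPM in GFP- libraries in DU145, with overlap (log2 change -0.23 ± 0.12 SE, limma adjusted p = 0.161). In PC3 ENO1 had 5094, 5344 and 4726 CPM in GFP+ libraries, against 5577, 6565 and 4715 CPM in GFP- libraries, again with overlap (log2 change -0.14 ± 0.12 SE, limma adjusted p = 0.562). ENO2, the neuronal isozyme and a known HIF target, passed the test in DU145. ENO2 had 27.8, 33.1 and 35.4 CPM in GFP+ libraries, against 42.8, 38.6 and 42.0 CPM in GFP- libraries there, without overlap. It fell 1.29-fold (log2 change -0.36 ± 0.12 SE, limma adjusted p = 0.0359), a call that was lost once the GC and length trend was removed (limma adjusted p = 0.192 there and 0.0124 to 0.615 over 27 alternatives). In PC3 ENO2 had 26.6, 30.3 and 28.9 CPM in GFP+ libraries, against 30.7, 37.6 and 30.7 CPM in GFP- libraries, without overlap and short of the threshold (log2 change -0.20 ± 0.12 SE, limma adjusted p = 0.338).

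PKM, the pyruvate kinase of these cells, had 2399.7, 2409 and 2904 CPM in GFP+ libraries, against 3429.6, 3075 and 3569.6 CPM in GFP- libraries in DU145. GFP+ and GFP- libraries did not overlap, and PKM fell 1.31-fold (log2 change -0.39 ± 0.11 SE, limma adjusted p = 0.0234). In PC3 it had 2586, 2657 and 2459 CPM in GFP+ libraries, against 2632, 3119.7 and 2364 CPM in GFP- libraries, with overlap (log2 change -0.07 ± 0.11 SE, limma adjusted p = 0.795). The count per gene does not separate the M1 and M2 splice forms.

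Lactate dehydrogenase is built from LDHA and LDHB subunits, and in DU145 LDHB rose while LDHA did not pass the test. LDHB (ENSG00000111716, chromosome 12, 21635342 to 21757857 on GRCh38), the subunit known for favouring pyruvate, had 464, 526 and 468 CPM in GFP+ libraries, against 403, 426 and 346 CPM in GFP- libraries. The groups did not overlap, and LDHB rose 1.24-fold (log2 change 0.31 ± 0.09 SE, limma adjusted p = 0.0253). LDHA, the subunit known for favouring lactate, had 1594, 1779 and 1774 CPM in GFP+ libraries, against 2003, 1988 and 1919 CPM in GFP- libraries in DU145. Its groups did not overlap and it missed the threshold (log2 change -0.20 ± 0.08 SE, limma adjusted p = 0.0628), which it passed with the GC and length trend removed (log2 change -0.36, limma adjusted p = 0.00361 there and 0.00128 to 0.622 over 27 alternatives). LDHB made up 30.8% ± 1.3 of the summed level per kilobase in DU145 GFP+ and 23.8% ± 1.6 in DU145 GFP- (SD, n = 3 each). In PC3, LDHA had 1725, 1908 and 1678 CPM in GFP+ libraries, against 2092, 2054 and 1926 CPM in GFP- libraries, without overlap and short of the threshold (log2 change -0.19 ± 0.08 SE, limma adjusted p = 0.137). LDHB in PC3 had 699, 796 and 729.9 CPM in GFP+ libraries, against 728, 643 and 731 CPM in GFP- libraries, with overlap (log2 change 0.08 ± 0.09 SE, limma adjusted p = 0.667). The share of LDHB in PC3 was 39.7% ± 0.9 in GFP+ and 35.2% ± 2.2 in GFP- (SD, n = 3 each), and no test was run on these shares.

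PGM1, which links glycogen to glucose 6-phosphate, passed the test in PC3 and did not in DU145. PGM1 (ENSG00000079739, chromosome 1, 63593276 to 63660245 on GRCh38) had 87.1, 96.3 and 87.7 CPM in GFP+ libraries, against 129.8, 141 and 114 CPM in GFP- libraries in PC3, without overlap. It fell 1.41-fold (log2 change -0.50 ± 0.09 SE, limma adjusted p = 0.00348). In DU145 it had 69.8, 75.5 and 82.8 CPM in GFP+ libraries, against 73.4, 76.2 and 77.9 CPM in GFP- libraries, with overlap (log2 change 0.00 ± 0.09 SE, limma adjusted p = 0.998). Summed over the 18 enzymes, the level was 20884, 21374 and 25287 CPM in DU145 GFP+ libraries, against 28705, 26064 and 29186 CPM in DU145 GFP- libraries. The highest of those GFP+ values is replicate 3, and the groups did not overlap. In PC3 the sums were 23894, 24877 and 22842 CPM in GFP+ libraries, against 25254, 29558 and 22259 CPM in GFP- libraries, which overlapped. Among the 18 enzymes, 9 fell and 1 rose in DU145 (13.9% and 13.1% of all genes), and 2 fell in PC3 (5.27% of all genes).

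**Figure D3:**
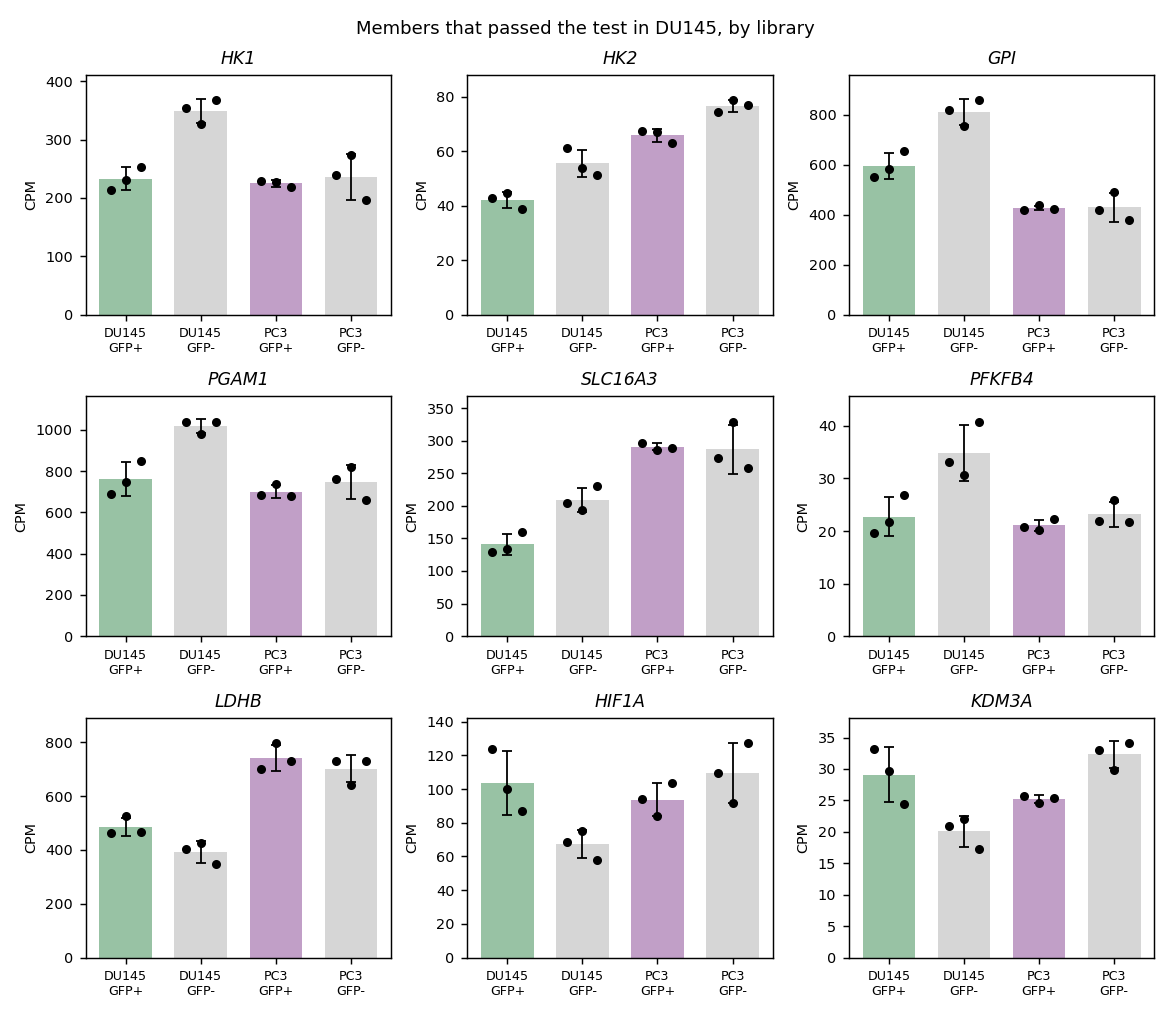
Levels in CPM (axis from 0) of 9 members that passed the test in DU145, in each of the 4 groups: bars are means, whiskers SD of 3 libraries and points the libraries. In DU145 the GFP+ libraries lie below the GFP- libraries for HK1, HK2, GPI, PGAM1, SLC16A3 and PFKFB4 and above them for LDHB, HIF1A and KDM3A, while the PC3 groups overlap for 7 of the 9 genes, HK2 and KDM3A being the exceptions.

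Among the transporters, SLC16A3, the lactate exporter known as MCT4, fell in DU145. SLC16A3 (ENSG00000141526, chromosome 17, 82228397 to 82261129 on GRCh38) had 129.9, 134 and 159 CPM in GFP+ libraries, against 204, 194 and 229.7 CPM in GFP- libraries. The groups did not overlap, and it fell 1.49-fold (log2 change -0.57 ± 0.10 SE, limma adjusted p = 0.00323). In PC3 it had 297, 286 and 289 CPM in GFP+ libraries, against 274, 329 and 258 CPM in GFP- libraries, with overlap (log2 change 0.03 ± 0.10 SE, limma adjusted p = 0.917). SLC16A3 has fractional estimated counts in all 12 libraries, and its exons overlap those of CSNK1D on the other strand, so its level is uncertain. SLC2A1, the main glucose importer (GLUT1), had 46.0, 52.3 and 54.8 CPM in GFP+ libraries, against 60.5, 57.8 and 65.0 CPM in GFP- libraries in DU145. Its groups did not overlap, short of the threshold (log2 change -0.26 ± 0.10 SE, limma adjusted p = 0.0658). In PC3 SLC2A1 had 123, 125 and 111 CPM in GFP+ libraries, against 115, 138 and 109.6 CPM in GFP- libraries, with overlap (log2 change -0.01 ± 0.10 SE, limma adjusted p = 0.963). SLC2A3, a high-affinity importer, had 1, 2 and 0 estimated counts in DU145 GFP+ and 0, 0 and 1 in DU145 GFP-. In PC3 it had 6.79, 6.36 and 7.87 CPM in GFP+ libraries, against 8.01, 5.49 and 6.72 CPM in GFP- libraries, with overlap (log2 change 0.07 ± 0.55 SE, limma adjusted p = 0.964).

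Of the 3 regulators of flux, PFKFB3 and PFKFB4 fell in DU145. PFKFB3 and PFKFB4 make and remove fructose 2,6-bisphosphate, an activator of phosphofructokinase. PFKFB4 (ENSG00000114268, chromosome 3, 48517684 to 48562015 on GRCh38) had 19.6, 21.7 and 26.9 CPM in GFP+ libraries, against 33.2, 30.6 and 40.8 CPM in GFP- libraries in DU145. PFKFB3 had 597, 625 and 659.5 CPM in GFP+ libraries, against 842, 718 and 738 CPM in GFP- libraries in DU145. Both were lower in every GFP+ library than in any GFP- library. PFKFB4 fell 1.54-fold (log2 change -0.62 ± 0.14 SE, limma adjusted p = 0.0104). PFKFB3 fell 1.22-fold (log2 change -0.29 ± 0.07 SE, limma adjusted p = 0.0175), a call lost once the GC and length trend was removed (limma adjusted p = 0.245 there and 0.00726 to 0.474 over 27 alternatives). In PC3 the groups of both overlapped, PFKFB3 with 306, 323 and 343 CPM in GFP+ libraries, against 352, 343 and 335 CPM in GFP- libraries (log2 change -0.08 ± 0.07 SE, limma adjusted p = 0.574). PFKFB4 in PC3 had 20.7, 20.2 and 22.3 CPM in GFP+ libraries, against 21.9, 26.0 and 21.7 CPM in GFP- libraries (log2 change -0.14 ± 0.14 SE, limma adjusted p = 0.642). PDK1, a kinase that shuts pyruvate out of the mitochondrial oxidation pathway, ranged from 14.0 to 25.7 CPM over all libraries and passed the test in neither line (log2 change -0.02 ± 0.16 SE, limma adjusted p = 0.929 in DU145 and log2 change -0.20 ± 0.16 SE, limma adjusted p = 0.523 in PC3).

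Of the oxygen-sensing genes, HIF1A, the regulated subunit of HIF, rose in DU145. HIF1A (ENSG00000100644, chromosome 14, 61695513 to 61748259 on GRCh38) had 124, 99.8 and 86.9 CPM in GFP+ libraries, against 68.7, 74.9 and 58.2 CPM in GFP- libraries. The groups did not overlap, and HIF1A rose 1.53-fold (log2 change 0.62 ± 0.15 SE, limma adjusted p = 0.0123). Its transcript has the lowest GC content among the members (36.4%), and with the GC and length trend removed its DU145 log2 change was 0.01 (limma adjusted p = 0.967 there and 0.00059 to 0.967 over 27 alternatives). In PC3 HIF1A had 94.1, 83.7 and 103 CPM in GFP+ libraries, against 109.7, 91.7 and 127 CPM in GFP- libraries, with overlap (log2 change -0.22 ± 0.15 SE, limma adjusted p = 0.426). EGLN1, the main HIF prolyl hydroxylase, had 34.9, 31.5 and 30.5 CPM in GFP+ libraries, against 29.7, 28.8 and 24.5 CPM in GFP- libraries in DU145. Its groups did not overlap, and it missed the threshold (log2 change 0.22 ± 0.12 SE, limma adjusted p = 0.161). In PC3 EGLN1 had 33.8, 31.6 and 38.0 CPM in GFP+ libraries, against 43.9, 36.7 and 46.4 CPM in GFP- libraries, with overlap (log2 change -0.29 ± 0.12 SE, limma adjusted p = 0.15). EGLN3, a hydroxylase that HIF itself induces, was below the expression minimum, with 7, 5 and 1 estimated counts in DU145 GFP+, 0, 3 and 4 in DU145 GFP- and 0 in all 6 PC3 libraries.

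The mitophagy receptors BNIP3 and BNIP3L are paired HIF targets. BNIP3 (ENSG00000176171, chromosome 10, 131966455 to 131982013 on GRCh38) had 46.0, 46.1 and 49.3 CPM in GFP+ libraries, against 65.5, 67.8 and 64.3 CPM in GFP- libraries in PC3, without overlap. It fell 1.40-fold (log2 change -0.48 ± 0.08 SE, limma adjusted p = 0.00198). In DU145 BNIP3 had 41.5, 42.8 and 45.5 CPM in GFP+ libraries, against 45.2, 46.4 and 40.7 CPM in GFP- libraries, with overlap (log2 change -0.03 ± 0.08 SE, limma adjusted p = 0.833). BNIP3L had 72.6, 61.8 and 47.8 CPM in GFP+ libraries, against 42.4, 48.5 and 42.8 CPM in GFP- libraries in DU145. Replicate 3 of GFP+ lay among the GFP- values there, and BNIP3L rose 1.35-fold (log2 change 0.43 ± 0.13 SE, limma adjusted p = 0.0307). With the GC and length trend removed that DU145 change was -0.04 (limma adjusted p = 0.739 there and 0.00181 to 0.799 over 27 alternatives), on the other side of 0. In PC3 BNIP3L had 42.5, 43.7 and 42.7 CPM in GFP+ libraries, against 52.6, 48.0 and 58.5 CPM in GFP- libraries, without overlap and short of the threshold (log2 change -0.30 ± 0.13 SE, limma adjusted p = 0.188).

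DDIT4 and NDRG1 were the members called lower in both lines, in comparisons with no library in common. DDIT4, an inhibitor of mTOR that stress induces, had 16.6, 18.7 and 22.6 CPM in GFP+ libraries, against 41.4, 56.5 and 38.1 CPM in GFP- libraries in PC3. In DU145 DDIT4 (ENSG00000168209, chromosome 10, 72273920 to 72276036 on GRCh38) had 27.3, 32.5 and 36.6 CPM in GFP+ libraries, against 44.3, 47.5 and 59.0 CPM in GFP- libraries. The groups did not overlap in either line. It fell 2.34-fold (log2 change -1.22 ± 0.17 SE, limma adjusted p = 0.000415) in PC3 and 1.56-fold (log2 change -0.65 ± 0.17 SE, limma adjusted p = 0.0181) in DU145. NDRG1, a stress-response gene known as a strong HIF target, had 2.23, 3.30 and 3.40 CPM in GFP+ libraries, against 5.79, 6.05 and 7.68 CPM in GFP- libraries in PC3. In DU145 NDRG1 had 14.7, 15.6 and 18.0 CPM in GFP+ libraries, against 24.5, 20.2 and 29.7 CPM in GFP- libraries. Here too the sorts did not overlap in either line. NDRG1 fell 2.20-fold (log2 change -1.14 ± 0.20 SE, limma adjusted p = 0.00299) in PC3 and 1.53-fold (log2 change -0.61 ± 0.20 SE, limma adjusted p = 0.0417) in DU145, and the DU145 call was lost once the GC and length trend was removed (limma adjusted p = 0.182 there and 0.0142 to 0.603 over 27 alternatives). With PC3 GFP- replicates 2 and 3 both left out, NDRG1 (limma adjusted p = 0.098 there and 0.000495 to 0.098 over 27 alternatives) and BNIP3 (limma adjusted p = 0.0635 there and 0.000162 to 0.0635 over 27 alternatives) missed the threshold in PC3.

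AK4, a mitochondrial adenylate kinase known to rise in hypoxia, showed the largest fitted PC3 change among the 38 members tested. AK4 (ENSG00000162433, chromosome 1, 65147549 to 65232145 on GRCh38) had 21.9, 24.1 and 22.6 CPM in GFP+ libraries, against 55.9, 48.4 and 58.0 CPM in GFP- libraries in PC3. The groups were far apart, and AK4 fell 2.36-fold (log2 change -1.24 ± 0.11 SE, limma adjusted p = 1.25e-05). In DU145 it had 74.6, 83.5 and 72.5 CPM in GFP+ libraries, against 75.2, 83.7 and 63.6 CPM in GFP- libraries, with overlap (log2 change 0.06 ± 0.11 SE, limma adjusted p = 0.71). AK4 has fractional estimated counts in all 12 libraries, so its level is uncertain. CA9, a carbonic anhydrase used as a hypoxia marker, was below the minimum, with 2, 0 and 0 estimated counts in PC3 GFP+ and 4.67, 4 and 4 in PC3 GFP-. In DU145 CA9 had 0 estimated counts in all GFP+ libraries and 0, 0 and 2 in GFP- libraries.

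**Figure D4:**
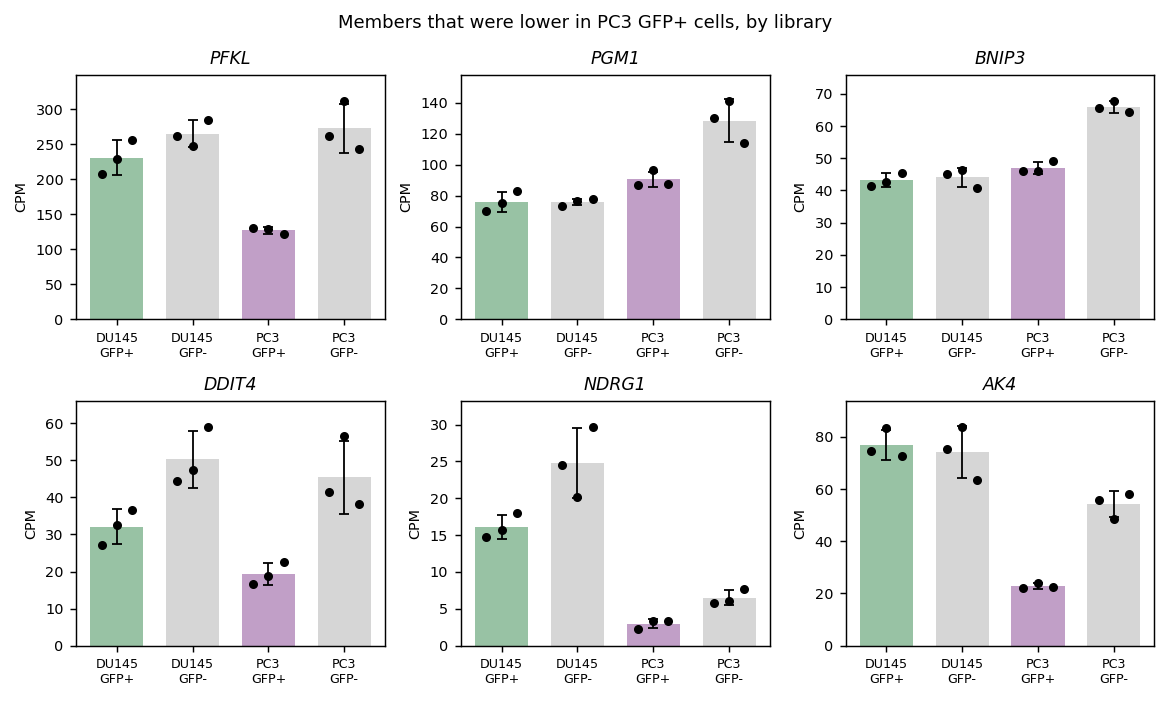
Levels in CPM (axis from 0) of the 6 members that were lower in PC3 GFP+ cells, in each of the 4 groups: bars are means, whiskers SD of 3 libraries and points the libraries. In PC3 every GFP+ library lies below every GFP- library for all 6 genes, and in DU145 only DDIT4 and NDRG1 of these genes show such a gap.

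Of the chromatin and matrix targets of HIF, KDM3A rose and P4HA2 fell in DU145. KDM3A (ENSG00000115548, chromosome 2, 86440647 to 86492716 on GRCh38), a histone demethylase, had 33.2, 29.7 and 24.5 CPM in GFP+ libraries, against 21.0, 22.0 and 17.3 CPM in GFP- libraries in DU145. In PC3 KDM3A had 25.7, 24.6 and 25.4 CPM in GFP+ libraries, against 33.0, 29.9 and 34.1 CPM in GFP- libraries. The GFP+ libraries lay above the GFP- libraries in DU145 and below them in PC3. KDM3A rose 1.44-fold (log2 change 0.53 ± 0.13 SE, limma adjusted p = 0.013) in DU145, and the PC3 difference did not pass the test (log2 change -0.36 ± 0.13 SE, limma adjusted p = 0.105). P4HA2, a collagen prolyl hydroxylase subunit, had 44.2, 49.0 and 49.2 CPM in GFP+ libraries, against 57.1, 55.7 and 56.0 CPM in GFP- libraries in DU145. Those groups did not overlap, and P4HA2 fell 1.19-fold (log2 change -0.25 ± 0.08 SE, limma adjusted p = 0.0458), the highest adjusted p among the 19 DU145 calls. In PC3 P4HA2 had 30.1, 30.7 and 30.3 CPM in GFP+ libraries, against 26.5, 30.1 and 29.9 CPM in GFP- libraries, with overlap (log2 change 0.08 ± 0.08 SE, limma adjusted p = 0.667). Its partner P4HA1 was not called in DU145 (log2 change 0.22 ± 0.12 SE, limma adjusted p = 0.178) or in PC3 (log2 change -0.30 ± 0.12 SE, limma adjusted p = 0.156).

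The secreted and remaining HIF targets passed the test in neither line in the fit reported here. ADM, the vasodilator adrenomedullin, had 26.9, 26.3 and 35.8 CPM in GFP+ libraries, against 44.0, 39.7 and 33.9 CPM in GFP- libraries in DU145, with overlap (log2 change -0.41 ± 0.15 SE, limma adjusted p = 0.0567). In PC3 ADM had 33.0, 31.4 and 24.9 CPM in GFP+ libraries, against 23.6, 20.1 and 21.8 CPM in GFP- libraries. The PC3 groups did not overlap, with a fitted change in the other direction (log2 change 0.44 ± 0.15 SE, limma adjusted p = 0.0829), which was called once the GC and length trend was removed (limma adjusted p = 0.018 there and 0.0161 to 0.589 over 27 alternatives). VEGFA, the vessel growth factor, ranged from 25.8 to 36.4 CPM in DU145 and from 47.6 to 52.4 CPM in PC3 (log2 change -0.21 ± 0.10 SE, limma adjusted p = 0.116 in DU145 and log2 change 0.00 ± 0.10 SE, limma adjusted p = 0.998 in PC3). MXI1, which antagonises MYC, ranged from 7.11 to 10.7 CPM over all libraries, and ANKRD37, an ankyrin repeat gene, from 0.636 to 2.57 CPM. Of the 13 HIF targets outside glycolysis, 12 were tested, and 3 fell and 2 rose in DU145 while 4 fell in PC3. Over all genes tested, 13.9% fell and 13.1% rose in DU145, and 5.27% fell in PC3.

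Whether a member changed differently in the lines was tested as the DU145 change minus the PC3 change, which 11 of the 38 members passed, 7 above 0 and 4 below, where 7.06% and 8.82% of all genes did, 15.9% in all. AK4 (log2 difference 1.30 ± 0.16 SE, limma adjusted p = 0.000189), PFKL (log2 difference 0.90 ± 0.14 SE, limma adjusted p = 0.00134), PGM1 (log2 difference 0.50 ± 0.13 SE, limma adjusted p = 0.0208) and BNIP3 (log2 difference 0.46 ± 0.11 SE, limma adjusted p = 0.0181) were above 0, with the fall in PC3. KDM3A (log2 difference 0.88 ± 0.18 SE, limma adjusted p = 0.0063), HIF1A (log2 difference 0.83 ± 0.21 SE, limma adjusted p = 0.0178) and BNIP3L (log2 difference 0.73 ± 0.18 SE, limma adjusted p = 0.0194) were above 0, with the rise in DU145. SLC16A3 (log2 difference -0.60 ± 0.14 SE, limma adjusted p = 0.0148), HK1 (log2 difference -0.53 ± 0.15 SE, limma adjusted p = 0.0287) and GPI (log2 difference -0.45 ± 0.13 SE, limma adjusted p = 0.0385) were below 0, with the fall in DU145. ADM (log2 difference -0.85 ± 0.21 SE, limma adjusted p = 0.0177) was below 0 as well, although neither line passed alone. DDIT4 (log2 difference 0.58 ± 0.24 SE, limma adjusted p = 0.113) and NDRG1 (log2 difference 0.53 ± 0.29 SE, limma adjusted p = 0.209), lower in both lines, did not pass. PFKL, SLC16A3, AK4 and KDM3A passed in all 12 fits that left out a single library. HIF1A and BNIP3L did not pass with the GC and length trend removed (limma adjusted p = 0.16 there and 0.000831 to 0.16 over 26 alternatives for HIF1A, and 0.0792 there and 0.0013 to 0.184 over 26 alternatives for BNIP3L). With equal library medians, which moved the median difference of all genes to -0.08, against 0.05 in the fit reported here, the split was 5 above and 5 below 0. With quantile normalization it was 8 above and 2 below.

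Between DU145 and PC3, the share of members that differed was close to that of all genes. With both sorts weighted equally, 14 members were higher and 16 lower in DU145, where 38.3% and 39.2% of all genes were, 77.5% in all. NDRG1 had 14.7 to 29.7 CPM in the 6 DU145 libraries, against 2.23 to 7.68 CPM in the 6 PC3 libraries (log2 change 2.19 ± 0.14 SE, limma adjusted p = 1.04e-08). AK4 (log2 change 1.10 ± 0.08 SE, limma adjusted p = 2.16e-08), PFKFB3 (log2 change 1.05 ± 0.05 SE, limma adjusted p = 6.64e-10), P4HA2 (log2 change 0.80 ± 0.06 SE, limma adjusted p = 3.63e-08) and GPI (log2 change 0.70 ± 0.07 SE, limma adjusted p = 4.73e-07) were also higher in DU145. SLC2A1 had 46.0 to 65.0 CPM in DU145, against 110 to 138 CPM in PC3 (log2 change -1.11 ± 0.07 SE, limma adjusted p = 7.93e-09). P4HA1 (log2 change -1.04 ± 0.09 SE, limma adjusted p = 9.39e-08), SLC16A3 (log2 change -0.75 ± 0.07 SE, limma adjusted p = 4.51e-07), VEGFA (log2 change -0.73 ± 0.07 SE, limma adjusted p = 4.77e-07), LDHB (log2 change -0.73 ± 0.06 SE, limma adjusted p = 2.03e-07) and PFKP (log2 change -0.65 ± 0.07 SE, limma adjusted p = 1.84e-06) were lower in DU145 too. SLC2A3 was nearly absent from DU145, with 0 to 2 estimated counts per DU145 library and 98 to 181 per PC3 library. GAPDH (log2 change 0.03 ± 0.09 SE, limma adjusted p = 0.781), ENO1 (log2 change 0.07 ± 0.09 SE, limma adjusted p = 0.484) and PKM (log2 change 0.16 ± 0.08 SE, limma adjusted p = 0.0786) did not pass the test. These did pass, as lower in DU145, after quantile normalization, and 13 members were then higher and 19 lower. With equal medians 16 members were higher and 12 lower, a scaling that moved the median of all genes to 0.13 log2 units, against -0.01 in the fit reported here.

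**Figure D5:**
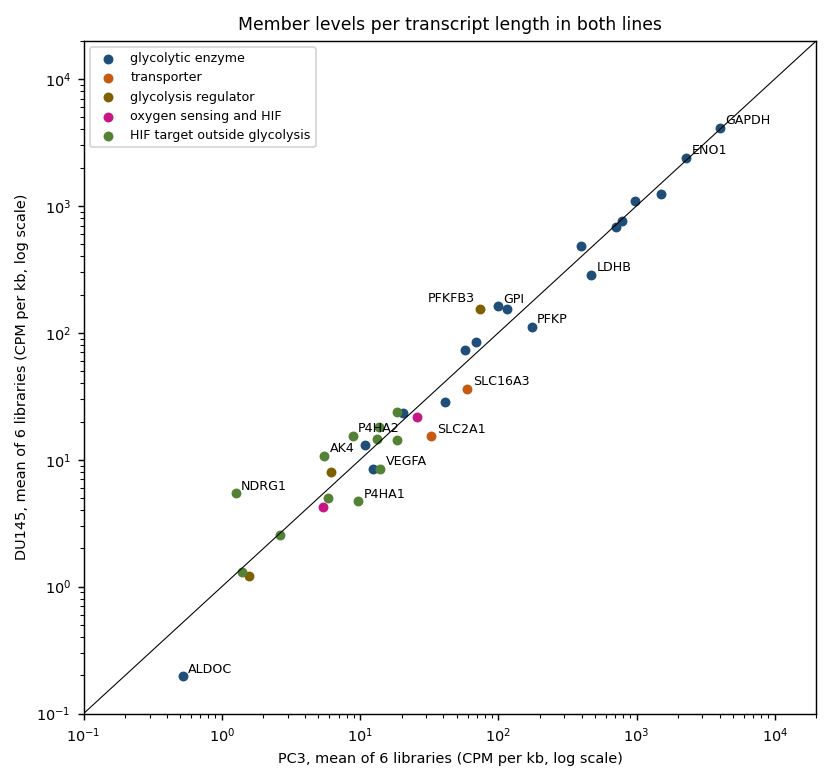
Mean level per kilobase of the longest annotated transcript in 6 DU145 libraries (vertical) against 6 PC3 libraries (horizontal), in CPM per kb on log axes, with the line of equality, coloured by role. GAPDH (4112 in DU145, 4010 in PC3) and ENO1 (2384 in DU145, 2276 in PC3) top both lines, NDRG1 lies far above the line and SLC2A1 and P4HA1 below it, and CA9, EGLN3 and SLC2A3 are off the plot for their low level.

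Per kilobase, GAPDH was the highest member in both lines and ENO1 the next. In DU145 they were followed by ALDOA (1231 CPM per kb), PKM (1091), LDHA (763) and TPI1 (688), and in PC3 by ALDOA (1501), PKM (970), LDHA (785) and TPI1 (710). The order of these 6 was the same in both lines, although neighbours such as LDHA and TPI1 overlapped in their range over libraries. Of the regulators and HIF targets, HIF1A stood at 21.6 CPM per kb in DU145 and 25.7 in PC3, DDIT4 at 23.6 in DU145 and 18.5 in PC3, and PDK1 at 1.2 in DU145 and 1.6 in PC3.

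Other genes of the same pathways came from 6 lists of 93 genes, of which 76 were tested. In DU145, 10 rose and 14 fell (13.1% and 13.9% of all genes), and in PC3, 6 rose and 10 fell (4.17% and 5.27% of all genes). The pentose phosphate pathway, which branches off at glucose 6-phosphate and supplies NADPH, had several genes lower in DU145. PGD averaged 241 ± 25.5 CPM in DU145 GFP+ and 344 ± 17.3 CPM in DU145 GFP- (SD, n = 3 each, log2 change -0.52 ± 0.09 SE, limma adjusted p = 0.00213). TKT averaged 675 ± 67.1 CPM in DU145 GFP+ and 940.2 ± 64.6 CPM in DU145 GFP- (SD, n = 3 each, log2 change -0.48 ± 0.10 SE, limma adjusted p = 0.00686). TALDO1 and RPIA fell too. PGD and TKT were called in all 12 fits that left out a single library. With the GC and length trend removed the log2 changes were -0.34 for PGD and -0.23 for TKT, still called, and TALDO1 was not. In PC3 only PGLS of that list passed, with 74.3 ± 1.86 CPM in PC3 GFP+ and 115 ± 24.5 CPM in PC3 GFP- (SD, n = 3 each, log2 change -0.61 ± 0.15 SE, limma adjusted p = 0.0205), a call lost in 5 of those 12 fits.

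The list for pyruvate entry into mitochondria held 12 tested genes, a mix of carrier subunits, enzyme subunits, and activating and inhibiting regulators. Of these 12, 3 fell in PC3. The pyruvate carboxylase PC stood at 33.6 ± 3.07 CPM in PC3 GFP+ and 59.2 ± 9.96 CPM in PC3 GFP- (SD, n = 3 each, log2 change -0.81 ± 0.13 SE, limma adjusted p = 0.00148). The pyruvate dehydrogenase subunit PDHA1 (log2 change -0.40 ± 0.08 SE, limma adjusted p = 0.00737) and the carrier subunit MPC2 (log2 change -0.44 ± 0.10 SE, limma adjusted p = 0.0179) fell too. MPC2 was called in 9 of the 12 fits without a single library. In DU145, 3 of 12 rose, PDP1 (log2 change 0.47 ± 0.14 SE, limma adjusted p = 0.0261), DLD (log2 change 0.39 ± 0.12 SE, limma adjusted p = 0.0367) and PDHX (log2 change 0.34 ± 0.11 SE, limma adjusted p = 0.0383), and these 3 calls were lost once the GC and length trend was removed. DLAT (log2 change -0.28), PDHB (-0.26), MPC1 (-0.56) and PDP2 (-0.27) were then newly called lower in DU145, where 12.7% of all genes were. In the fit reported here, 5.27% of all genes fell in PC3 and 13.1% rose in DU145. Among the further enzymes and isozymes, the mitochondrial phosphatase PGAM5 fell in DU145 (log2 change -0.35 ± 0.09 SE, limma adjusted p = 0.018), a call lost in 4 of the 12 fits without a single library and at a log2 change of -0.15 with the GC and length trend removed, and PFKFB2, another maker of fructose 2,6-bisphosphate, rose in PC3, with 23.6 ± 1.40 CPM in PC3 GFP+ and 14.7 ± 2.61 CPM in PC3 GFP- (SD, n = 3 each, log2 change 0.69 ± 0.15 SE, limma adjusted p = 0.0101). Newly called lower in DU145 with that trend removed were PFKFB2 (log2 change -0.44, limma adjusted p = 0.00821) and PGM2 (log2 change -0.35, limma adjusted p = 0.0196). Among the carriers, BSG, the chaperone of lactate exporters (log2 change -0.32 ± 0.11 SE, limma adjusted p = 0.0407), and SLC2A6 (log2 change -0.33 ± 0.12 SE, limma adjusted p = 0.0479) fell in DU145, calls lost once the GC and length trend was removed. SLC16A1 was then newly called lower in DU145 (log2 change -0.18), and BSG (0.15) and SLC2A6 (0.35) were newly called higher in PC3.

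Of the 8 tested genes in the list of other HIF pathway components, EPAS1, which encodes the HIF-2α subunit, fell in PC3. It averaged 2.49 ± 0.269 CPM in PC3 GFP+ and 9.21 ± 0.756 CPM in PC3 GFP- (SD, n = 3 each, log2 change -1.89 ± 0.27 SE, limma adjusted p = 0.000475). CREBBP, a coactivator of HIF and of β-catenin, rose in DU145 and averaged 183 ± 10.3 CPM in DU145 GFP+ and 142 ± 8.42 CPM in DU145 GFP- (SD, n = 3 each, log2 change 0.37 ± 0.07 SE, limma adjusted p = 0.00375). Both calls held in all 12 fits that left out a single library. Of 34 further hypoxia targets, 5 rose and 5 fell in PC3 (4.17% and 5.27% of all genes), and 6 rose and 6 fell in DU145 (13.1% and 13.9% of all genes). In PC3 the secreted stanniocalcin STC2 rose, with 282 ± 33.2 CPM in PC3 GFP+ and 128 ± 2.60 CPM in PC3 GFP- (SD, n = 3 each, log2 change 1.13 ± 0.09 SE, limma adjusted p = 4.2e-06). CITED2, which competes with HIF for its coactivator, rose there, with 71.3 ± 8.39 CPM in PC3 GFP+ and 34.8 ± 3.49 CPM in PC3 GFP- (SD, n = 3 each, log2 change 1.03 ± 0.11 SE, limma adjusted p = 7.15e-05). The demethylase KDM4B fell, with 17.6 ± 1.02 CPM in PC3 GFP+ and 34.9 ± 2.72 CPM in PC3 GFP- (SD, n = 3 each, log2 change -0.99 ± 0.11 SE, limma adjusted p = 7.23e-05). In DU145 the smallest adjusted p values were those of the repressor BHLHE40 (log2 change -0.35 ± 0.07 SE, limma adjusted p = 0.00517), the binding protein IGFBP3 (log2 change 0.82 ± 0.16 SE, limma adjusted p = 0.00596) and the matrix enzyme LOXL2 (log2 change -0.34 ± 0.07 SE, limma adjusted p = 0.00871), of which LOXL2 alone was lost once the GC and length trend was removed.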

How the data were processed

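Total RNA of 12 libraries (3 in each of 4 groups) was measured by RNA sequencing. Cells were lysed after sorting and RNA was taken with a column kit, per the labels' protocols. STAR and DESeq2, with no version, are named in the submitters' processing notes, and how reads were counted, and on which build, is not given in the sources used here. The deposited log2 values fit log2 of (estimated count + 0.5) per 1000000 of a scaled library total, and 86.9% of the estimated counts (median library) came out whole within 0.01. CPM is that value taken out of the log2 scale. All 12 columns were used.

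The differences were fitted with limma (3.58.1, under R 4.3.3: 4 group means, eBayes with trend, two-sided, 8 residual degrees of freedom, Benjamini-Hochberg adjustment at 0.05) over 12527 genes with a log2 CPM of at least 0 in at least 3 libraries. The fit was tested on simulated data. Counts for groups of genes are descriptive and no set test was run. CA9 and EGLN3, below the minimum, are given as estimated counts. The members and gene lists were chosen with earlier results of these data known. All members are accounted for. Libraries are listed for members that passed in either line and for isozyme pairs, and of each other list up to 3 called genes with the smallest adjusted p in each line are named. TALDO1 and RPIA were named after their values were seen. EPCAM, CDH1 and the other markers check the labels. Some genes of these lists are not reported here. GENCODE 29 (GRCh38) gave positions, GC content and length for the 18901 genes whose identifier it holds, and promoter sequences came from RefSeq. The 27 alternatives changed the minimum, the scaling, the variance model, the offset, the GC and length trend (loess, span 0.4), the replicate block, the threshold (0.01) and the libraries used.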

Additional observations from a re-analysis of the deposited data

Results flagged for a closer look

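For 11 members the GFP+ over GFP- change differed between the lines by the limma test of the difference itself, at the limma adjusted p given in the report. Of all genes tested, 15.9% passed the same test. The difference, as the DU145 log2 change minus the PC3 log2 change, was 1.2967 for AK4, 0.8959 for PFKL, 0.8832 for KDM3A, 0.8326 for HIF1A, 0.7289 for BNIP3L, 0.501 for PGM1 and 0.4583 for BNIP3. It was -0.8491 for ADM, -0.5995 for SLC16A3, -0.534 for HK1 and -0.4492 for GPI. AK4, PFKL, KDM3A and SLC16A3 passed in all 12 fits that left out a single library. HIF1A and BNIP3L did not pass with the GC and length trend removed, where the differences were 0.22 and 0.27. AK4 and SLC16A3 have fractional estimated counts in all 12 libraries, and the part of shared reads in their differences was not tested. Groups of 3 libraries are too small for a test of single outlying libraries.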

How the results depend on the processing

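Of the values under alternatives, 3707 stayed on the same side of the threshold, 207 fell below it, 91 passed it newly and 7 reversed. Among the 3707, 141 were uncalled in both fits and had another sign, and the rest kept their direction. Reversed were BNIP3L in DU145 (-0.042 with the GC and length trend removed, with and without the replicate block), AK4 in DU145 (-0.30 under both, limma adjusted p = 0.0338 and 0.0323), and, for DU145 over PC3 after quantile normalization, GAPDH (-0.11), ENO1 (-0.35) and PKM (-0.16). The cause was not tested, here or for the counts that follow. Members called in DU145 numbered 19 in the fit reported, 0 without GFP+ replicates 1 and 2 (a lone library, assumed to vary like the others) and 5 at 0.01, and 5 to 26 when leaving out single libraries. All genes called there numbered 3389, against 2252 (quantile), 170 (both left out), 784 (0.01) and 896 to 5597, and other pathway genes 24, against 15, 1, 7 and 7 to 33. In PC3, members numbered 6, against 12 with the GC and length trend removed, 14 with the replicate block added, and 6 to 7; all genes 1182, against 2390, 2605, 410 (GFP- replicates 2 and 3 left out), 526 (0.01) and 660 to 1492; other pathway genes 16, against 9 (those replicates left out) and 14 to 19. For the difference, members numbered 11, against 17 (replicate block), 4 (DU145 GFP+ replicates 1 and 2 left out), 3 (0.01) and 6 to 16; all genes 1990, against 3321, 3235 (block, trend removed), 649, 1188 (PC3 GFP- replicates 2 and 3 left out), 708 (0.01) and 1145 to 3661. For DU145 over PC3 the ranges without single libraries were 28 to 31 members and 9323 to 9803 genes. Replicate numbers are shared between sorts, but deviations of same-numbered libraries correlated at -0.02, 0.09 and 0.21 in DU145 and 0.06, 0.20 and 0.14 in PC3, so they were not taken as pairs. In PC3 every GFP+ library correlated best with its own number, a hint from the data, while DU145 GFP+ replicate 1 did so with GFP- replicate 2 (0.18). The replicate block gave 22 members in DU145 and 7 in PC3. Between the lines it gave 21, against 30 in the fit reported. There the block was coded so that replicate 1 levels, and not line means, were compared, so these 2 counts are not alike. The tally that opens this paragraph includes those line values. Low levels (ALDOC, ANKRD37 and, in PC3, NDRG1) rest on few counts.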
